A study of Mus musculus with 6 samples.

Results

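Complex I, the NADH:ubiquinone oxidoreductase, is the entry point of electrons from NADH into the mitochondrial respiratory chain. Its peripheral arm oxidises NADH and passes electrons along iron-sulfur clusters to ubiquinone, and its membrane arm pumps protons. The core subunits carry out catalysis, the accessory subunits surround and stabilise them, and assembly factors help to build the complex without remaining in it. Skeletal muscle depends on it for oxidative ATP production.

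The genes described here are the 45 entries whose symbol starts with Nduf, of 23367 entries in the gene table. They comprise 36 subunits (Ndufa, Ndufb, Ndufc, Ndufs and Ndufv), 7 assembly factors (Ndufaf1 to Ndufaf7), and the pair Ndufa4 and Ndufa4l2. Ndufa4 carries a complex I name but is now regarded as a subunit of complex IV, and Ndufa4l2 is its paralog, so both were kept apart from the counts of subunits. By textbook knowledge 7 of the subunits are core and 29 accessory, with 16 in the peripheral arm, 19 in the membrane arm, and Ndufab1, the mitochondrial acyl carrier protein, counted in neither because it is found in both. The core subunits encoded by mitochondrial DNA carry other names and are outside this set. All 45 genes passed the filter on low counts, so none was lost from the comparisons.

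Polyadenylated RNA was sequenced from the gastrocnemius, a calf muscle, of wild type FVB mice at 5 stages of development. There was 1 library each at embryonic day 18.5 (E18.5), postnatal day 2 (PN2), postnatal day 28 (PN28) and 22 weeks (adult), and there were 2 from separate mice at postnatal day 14 (PN14). Tissue of several mice was pooled at E18.5 and PN2, and the E18.5 pool alone held both sexes, so sex and pooling cannot be told apart from age there. The question asked of these genes was when, between late gestation and adulthood, their transcripts changed.

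The libraries held 125402932 to 157868359 counts, and the 20 most abundant genes took 16% of them at E18.5 and 36.9% in the adult. The TMM method, which scales libraries so that most genes stay level, therefore gave factors from 0.7136 to 1.452. Levels below are FPKM (fragments per kilobase of transcript, scaled to sequencing depth) divided by these factors, written as rescaled FPKM, which allow comparison between genes and between stages. A gene was called changed at an adjusted p under 0.05 and at least a 2-fold difference in edgeR's quasi-likelihood test. The error came from the PN14 pair alone, with 1 residual degree of freedom, and each single library was assumed to vary as that pair did. Muscle fibre markers were present in every library, with a summed level of 21779.7 CPM (counts scaled to depth and by TMM) at E18.5 and 229258 in the adult. Each of the 8 was higher at PN14 than at PN2, and 2 of them were called, where 11.8% of all genes tested rose. Their median log2 fold change in that step was 2.29 (0.67 to 7.09). Their sum went from 25476 CPM at PN2 to 176844 and 125556 at PN14. Fewer fibres and less RNA per fibre cannot be told apart in whole tissue, and the part of fibre content in the results below was not tested.

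The subunits rose together between PN2 and PN14. From PN2 to PN14, 36 of 36 subunits rose, by a median log2 fold change of 1.68 and by 1.14 (Ndufc2) to 2.48 (Ndufc1). Of all 16882 genes tested, 11.8% rose and the median log2 fold change was -0.012. Over the subunits, the mean rescaled FPKM was 93.4 at E18.5, then 105 at PN2, 370.1 and 330.0 in both PN14 libraries, 345 at PN28 and 337 in adult muscle. The 4 later libraries were each above both early ones for 36 of 36 subunits and 7 of 7 assembly factors. That order was found for 32.9% of all genes tested. The assembly factors were far less abundant, and 4 of 7 rose, with a median log2 fold change of 1.34. Their mean rescaled FPKM was 6.3 at E18.5, 6.21 at PN2, 15.4 and 14.2 at PN14, 15.2 at PN28 and 14.9 in adult muscle. All Nduf genes together took 0.4% of all counts at E18.5, 0.459% at PN2, 0.913% and 0.961% at PN14, 0.798% at PN28 and 0.698% in adult muscle. That share peaked at PN14, while the rescaled levels stayed near their PN14 value.

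**Figure D1:**
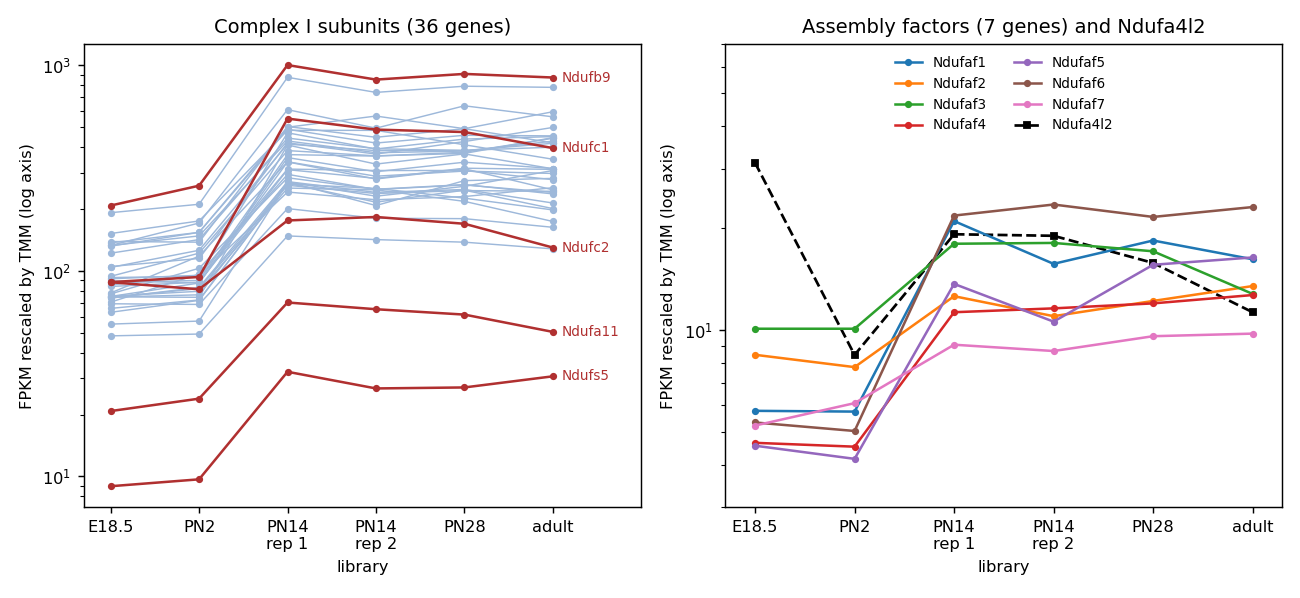
Rescaled FPKM (log axis) of each gene in the 6 libraries, with the subunits at left and the assembly factors and Ndufa4l2 at right. Blue lines are subunits and red lines are the 5 that are labelled; each point is 1 library. The subunits step up between PN2 and PN14 and then run level, and Ndufa4l2 is highest at E18.5.

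The size of the rise depended on how the libraries were scaled. With library size alone, the PN2 to PN14 median over all tested genes became -0.66, against -0.012 with TMM. On that scale 20 of 36 subunits rose, against 5.06% of all genes, with a median log2 fold change of 1.02. Still, 36 of 36 were higher at PN14. The 4 later libraries were each above both early ones for 34 of 36 subunits and 4 of 7 assembly factors, against 12.3% of all genes. A change of scaling shifts all genes of a comparison by nearly the same amount. The distance between the subunits and the median gene was therefore bound to be nearly the same with both, and is not a separate result. The same holds for the assembly factors, of which 2 were called and the median was 0.69.

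The 7 core subunits rose within a narrow range, from 1.42 to 1.74 on the log2 scale, with a median of 1.62. Ndufv1, which binds NADH and takes up its electrons, had 78.1 rescaled FPKM at E18.5, 118 at PN2, 339.6 and 289 at PN14, 306 at PN28 and 298 in adult muscle. Its log2 fold change from PN2 to PN14 was 1.42 (SE 0.318, adjusted p = 0.0235, edgeR quasi-likelihood test). It was also the subunit with the largest difference from E18.5 to PN2, a log2 fold change of 0.59 that was not called (adjusted p = 0.921, edgeR quasi-likelihood test). Ndufs7, which carries the last iron-sulfur cluster before ubiquinone, rose by 1.62 (SE 0.259) from PN2 to PN14 and, as the core subunit with the largest change over the whole course, by 2.24 (SE 0.289) from E18.5 to adult. Its rescaled FPKM was 94.1, 122, 385, 363, 373 and 445 in order of age. The iron-sulfur subunits Ndufs1, Ndufs8 and Ndufv2 and the cluster-free Ndufs3 rose by 1.74, 1.48, 1.61 and 1.66 on the log2 scale from PN2 to PN14. Ndufs8 was the lowest of the core subunits in the adult, at 163 rescaled FPKM.

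The accessory subunits spread more widely, from 1.14 to 2.48, with a median of 1.75. Membrane arm subunits had a median of 1.78 and peripheral arm subunits one of 1.62, and each of the 19 and the 16 rose. The 4 largest changes from PN2 to PN14 were in the membrane arm: Ndufc1 (2.48, SE 0.244), Ndufb2 (2.32, SE 0.253), Ndufb5 (2.18, SE 0.317) and Ndufa13, also known as GRIM-19 (2.07, SE 0.31). The 4 smallest were Ndufc2 (1.14, SE 0.195), Ndufa7 (1.30, SE 0.203), Ndufv3 (1.32, SE 0.215) and Ndufa10 (1.37, SE 0.272). These fold changes rest on counts. Ndufv3 went from 51 to 135 and 119 CPM, and more steeply from 83.2 to 271 and 231 in rescaled FPKM.

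The membrane arm neighbours Ndufc1 and Ndufc2 stood at opposite ends of that order. In the build of the files, mm9, the GENCODE annotation places Ndufc1 at chr3:51208599-51212910 on the minus strand and Ndufc2 at chr7:104548513-104556312 on the plus strand. Ndufc1 had 88.2 rescaled FPKM at E18.5, 93.4 at PN2, 551 and 487 at PN14, 474 at PN28 and 396 in adult muscle. Ndufc2 had 88.1 at E18.5, 81.4 at PN2, 176 and 183 at PN14, 169.6 at PN28 and 129.9 in adult muscle. The ratio of Ndufc1 to Ndufc2, which no scaling alters, was 1 at E18.5, then 1.15 at PN2, 3.13 and 2.65 at PN14, 2.79 at PN28 and 3.05 in adult muscle. The transcripts were thus level with each other before PN14 and apart from it on; the pair was chosen for this difference, which was not tested.

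**Figure D2:**
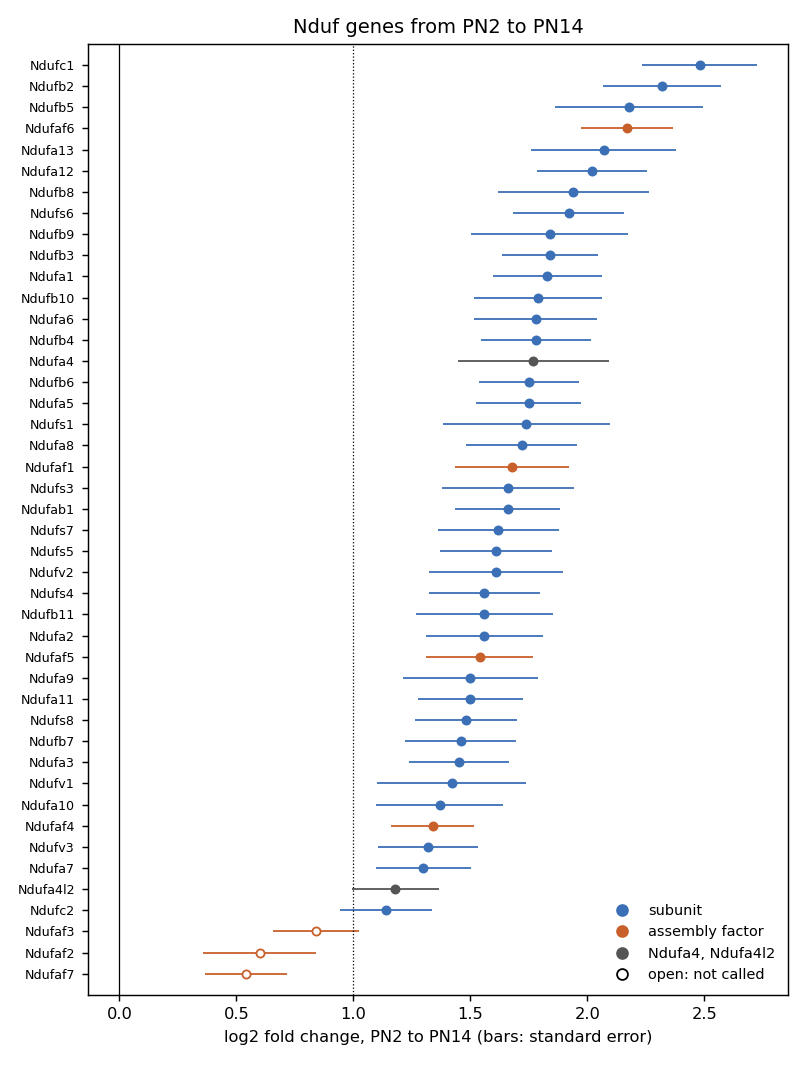
Log2 fold change from PN2 (1 library) to PN14 (2 libraries) of 44 Nduf genes, with the 2-fold line dotted. Bars are standard errors worked back from the F statistic of the test. Filled points were called; the 3 open points are Ndufaf2, Ndufaf3 and Ndufaf7.

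The levels of the subunits differed among themselves more than any of them changed. In the adult the highest was Ndufb9, which binds the acyl carrier protein, at 873 rescaled FPKM, followed by Ndufb8 at 782 and Ndufa6 at 595. The lowest were Ndufs5, on the intermembrane side, at 30.7 and Ndufa11 at 50.5. Ndufs5 had 8.96 at E18.5, 9.68 at PN2, 32.3 and 26.8 at PN14 and 27.1 at PN28, and so was the lowest subunit in every library. The RefSeq gene list for GRCm38.p6 holds near copies of Ndufs5, Ndufa11, Ndufa12, Ndufab1, Ndufb4 and Ndufs6 under related symbols, and reads shared with such copies make the levels of these 6 genes uncertain. The order of the 36 subunits was largely kept with age, with a Spearman rho of 0.849 between E18.5 and adult and 0.978 between the PN14 libraries (n = 36 genes, a description, since all genes share the libraries).

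Promoter sequence is shown here because the subunits moved together. RefSeq promoters (250 bases before to 50 after the start, build GRCm38.p6) were found for 39 of the 45 genes, 41 promoters in all, with none for Ndufa2, Ndufs1, Ndufb9, Ndufa4l2 and Ndufaf6 among others. The motif of NRF1, a regulator of respiratory chain genes, was spelled as GCGCA, any base, then GCGC, and searched on both strands. It was in 10 of 41 promoters (24.4%) and in 4.6% of all 32851 promoters in the table. The 10 promoters belong to 9 genes, since overlapping promoters of Ndufa5 share the same site. Ndufb4 held the most copies. The 250 bases before its start (chr16:37654369-37654618, minus strand) follow, with the NRF1 matches in capitals.
Ndufb4: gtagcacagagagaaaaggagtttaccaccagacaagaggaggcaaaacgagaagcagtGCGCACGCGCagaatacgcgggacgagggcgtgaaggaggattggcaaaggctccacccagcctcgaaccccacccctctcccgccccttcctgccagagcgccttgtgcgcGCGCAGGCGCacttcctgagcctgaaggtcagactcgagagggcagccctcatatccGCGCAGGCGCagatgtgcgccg
Matches were also found in promoters of Ndufa5, Ndufa6, Ndufa8, Ndufa11, Ndufs5 and Ndufs6 and of the assembly factors Ndufaf4 and Ndufaf5. For the last pair the match lies in these windows, on the plus strand at chr4:24897960-24897989 and chr2:140170652-140170681.
Ndufaf4: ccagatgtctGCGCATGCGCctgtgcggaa
Ndufaf5: agtcccgttgGCGCATGCGCctaatagaaa

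The YY1 motif, spelled AAGATGGC and searched on both strands, was in 7 of 41 promoters (17.1%) and in 2.75% of all promoters. Each of the 7 belongs to a subunit (20.6% of 34 subunit promoters), and none of the 6 assembly factor promoters held it. For NRF1 the shares were 23.5% and 33.3%, and 6 promoters are too few to compare the classes. Each match was on the strand of the gene, 23 to 39 bases after the start, and includes the letters ATG, so a match here may fall on a start codon; this was not checked. The windows are shown to allow comparison, with the motif in capitals.
Ndufa3: cgccaagaacAAGATGGCcgggagtaag
Ndufa9: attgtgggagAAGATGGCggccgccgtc
Ndufb8: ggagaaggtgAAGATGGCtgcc
Ndufc1: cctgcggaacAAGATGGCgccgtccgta
Ndufs4: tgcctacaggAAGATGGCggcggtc
Ndufs6: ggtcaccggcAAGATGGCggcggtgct
Ndufs7: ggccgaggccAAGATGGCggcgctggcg
They lie at chr7:3617385-3617412 (plus), chr6:126849098-126849125 (minus), chr19:44555393-44555414 (minus), chr3:51408916-51408943 (minus), chr13:114388045-114388069 (minus), chr13:73328433-73328459 (minus) and chr10:80249463-80249490 (plus), in the order listed. The ETS motif CCGGAAG, bound by GABPA, was in 12.2% of the promoters against 8.86% of all. The motif TCAAGGTCA, bound by oestrogen-related receptors, was in 0 of 41 against 0.423% of all. At that share, 41 promoters are too few to show a lack of it. GC content was higher in the Nduf promoters, with a median of 59.3% against 52.7% for all promoters. GC content was not matched in these shares, and a match of letters is a description only.

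Among the assembly factors, some rose as steeply as the subunits and some did not pass the test. Ndufaf6, which acts early in assembly, had the largest change, with 5.34 rescaled FPKM at E18.5, 5.04 at PN2, 21.8 and 23.5 at PN14, 21.6 at PN28 and 23.1 in adult muscle. It rose by 2.17 on the log2 scale from PN2 to PN14 (SE 0.198, adjusted p = 0.00389, edgeR quasi-likelihood test). Ndufaf1, which works on the membrane arm together with Ecsit and Acad9, rose by 1.68 (SE 0.244), from 5.75 at PN2 to 21 and 15.7 at PN14. Ndufaf5, which hydroxylates Ndufs7, rose by 1.54 (SE 0.229), from 4.17 to 13.7 and 10.6. Ndufaf4 rose by 1.34 (SE 0.177), from 4.53 to 11.3 and 11.6.

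The other assembly factors showed smaller differences. Ndufaf3, the partner of Ndufaf4, had 10.1 rescaled FPKM in both early libraries, 18 and 18.1 at PN14, 17.1 at PN28 and 12.8 in adult muscle. Its log2 fold change from PN2 to PN14 of 0.84 had an adjusted p of 0.0222 in edgeR's quasi-likelihood test but was under 2-fold. Ndufaf2 had 8.46, 7.78, 12.6, 11, 12.2 and 13.5 in order of age, a log2 fold change of 0.60 (SE 0.241, adjusted p = 0.106, edgeR quasi-likelihood test). Ndufaf7, a methyltransferase, had 5.23, 6.09, 9.06, 8.68, 9.6 and 9.77, a log2 fold change of 0.54 (SE 0.176, adjusted p = 0.0621, edgeR quasi-likelihood test). With library size alone the sign of these last 2 turned, to -0.06 for Ndufaf2 and -0.11 for Ndufaf7.

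Ratios within a library do not depend on the scaling. The mean level of the assembly factors was 6.75% of that of the subunits at E18.5, 5.89% at PN2, 4.15% and 4.3% at PN14, 4.41% at PN28 and 4.43% in adult muscle. Both early libraries lay above the 4 later ones. Ndufaf2 is a paralog of the subunit Ndufa12 and occupies its place during assembly. The ratio of Ndufa12 to Ndufaf2 was 10.4 at E18.5, 11.5 at PN2, 29.2 and 33 at PN14, 31 at PN28 and 32.8 in adult muscle. Ndufa12 itself rose by 2.02 (SE 0.236) from PN2 to PN14, from 89.9 to 368 and 362 rescaled FPKM. Set against Cs, the citrate synthase gene often used as a measure of mitochondrial content, the mean of the subunits was 78.4% of Cs at E18.5, 68.2% at PN2, 71.3% and 75.9% at PN14, 74.4% at PN28 and 66.8% in adult muscle. The assembly factors were at 5.29% and 4.02% of Cs in the early libraries and between 2.96% and 3.28% in the later ones. Both series depend on the choice of Cs, which had the largest PN2 to PN14 change (1.63) of the 14 genes listed for mitochondrial content. Against the mean of all 14, the subunits were at 123% at E18.5, then 126% at PN2, 189% and 192% for the PN14 pair, 176% at PN28 and 147% in adult muscle. The assembly factors were at 8.26%, 7.44%, 7.84%, 8.25%, 7.75% and 6.53% of that mean in order of age. The subunits thus stepped up at PN14 against the list mean and not against Cs, and the assembly factors were lower against Cs and near level until PN28 against the list mean.

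**Figure D3:**
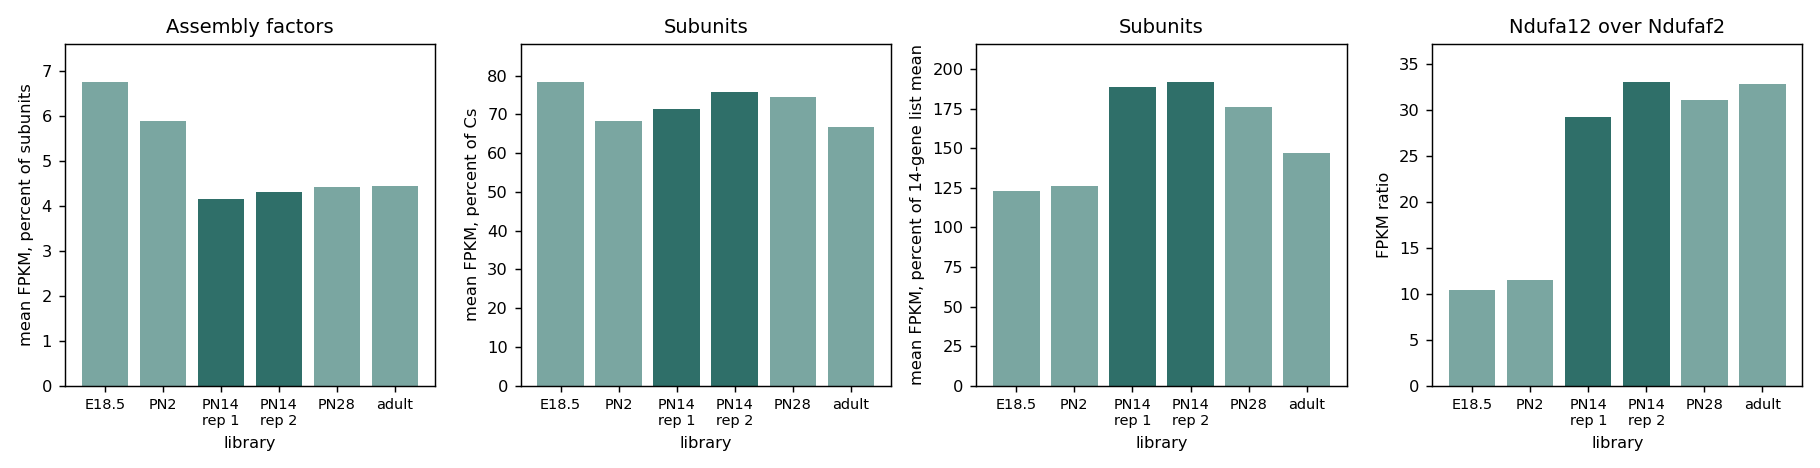
From left to right, mean FPKM of the assembly factors as a percent of the subunits, of the subunits as a percent of Cs, of the subunits as a percent of the mean of 14 mitochondrial content genes, and the ratio of Ndufa12 to Ndufaf2, with 1 bar per library and the PN14 pair in the darker shade. The subunits step up at PN14 against the 14-gene mean (126% to 189% and 192%) but not against Cs, the gene of that list with the largest change.

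Other genes of the same machinery were counted in the same fit, in which 11.8% of all genes tested rose from PN2 to PN14. Of 11 complex I assembly factors with other names, 3 rose from PN2 to PN14 (Ecsit by 1.99, Atp5sl, also called Dmac2, by 1.49, and Timmdc1 by 1.16), with a median of 0.67. Acad9 and Nubpl, which delivers iron-sulfur clusters to complex I, had log2 fold changes of 0.56 and 0.16 and were not called. Of 14 genes of iron-sulfur cluster assembly 6 rose, with a median of 0.94; the largest change was in Bola3, at 2.26. Of 14 genes for general mitochondrial content 5 rose, with a median of 0.85. The other complexes of the chain were closer to the complex I subunits. In complex II 4 of 4 genes rose (median 1.58), as did 8 of 9 of complex III (1.82) and 7 of 7 of complex IV (1.86). Of 17 genes with an Atp5 symbol 13 rose (1.48), among them Atp5sl, which is also counted above as a complex I assembly factor. The gene 1810043H04Rik, since renamed Ndufaf8, is outside the set by its symbol, and its log2 fold change of 0.99 fell just short of 2-fold.

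Of 9 regulator genes 2 rose from PN2 to PN14, where 11.8% of all genes tested rose. These were Esrra by 1.32 (SE 0.201) and Esrrg by 1.16 (SE 0.187), both oestrogen-related receptors. Esrrb, a receptor of the same family, was not called and had 1.83 rescaled FPKM at PN2 and 2.02 and 2.08 at PN14. Esrra had 15.2 rescaled FPKM at E18.5, 16 at PN2, 41.8 and 37.9 at PN14, 52.5 at PN28 and 56.8 in adult muscle. The coactivator gene Ppargc1a had a log2 fold change of 0.79, and those of Nrf1, Gabpa and Yy1 were -0.32, -0.15 and 0.05; none of these 4 was called.

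Before PN2 and after PN14 no Nduf gene was called. From E18.5 to PN2, where 0.0296% of all genes were called (0.0178% up and 0.0118% down), the subunits had a median log2 fold change of 0.14 (-0.11 to 0.59) and the assembly factors one of -0.04. At an unadjusted p under 0.05 there was 1 gene, Ndufa4l2, in edgeR's quasi-likelihood test. The share of all genes under that limit was not counted, here or in the later comparisons. From PN14 to PN28, where 0.0178% were called, the subunits ranged from -0.23 to 0.21 with a median of -0.03. From PN28 to adult, where 0.521% were called (0.160% up and 0.361% down), they ranged from -0.39 to 0.27 with a median of -0.08. In both of these later comparisons 0 Nduf genes had an unadjusted p under 0.05 in edgeR's quasi-likelihood test, and none was called by DESeq2 or edgeR's exact test. These single libraries leave small changes undetectable.

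The stage of the highest level depended on the scaling. With TMM, 18 subunits peaked at PN14, 7 at PN28 and 11 in adult muscle, and with library size alone all 36 peaked at PN14. Against the median of all genes tested, which was -0.25 with library size alone from PN14 to PN28, the subunit median was also -0.25. The PN14 libraries themselves differed by up to 0.38 on the log2 scale among subunits, with 34 of 36 higher in replicate 1 under TMM and 7 of 36 with library size alone.

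Over the whole course from E18.5 to adult, 35 of 36 subunits and 4 of 7 assembly factors rose, against 21.4% of all genes. The subunit median was 1.75, the assembly factor median 1.45 and the all-gene median -0.05. The largest changes among subunits were in Ndufa13 (2.36, SE 0.339), Ndufa12 (2.33, SE 0.259), Ndufb5 (2.30, SE 0.343) and Ndufb4 (2.25, SE 0.261). The smallest were in Ndufc2 (0.56, SE 0.215, adjusted p = 0.0692 in edgeR's quasi-likelihood test, not called), Ndufb7 (1.20, SE 0.258), Ndufab1 (1.21, SE 0.242) and Ndufs8 (1.24, SE 0.238). Ndufab1 was highest at PN14, with 253 and 248 rescaled FPKM against 174 in the adult. The assembly factors that rose were again Ndufaf1 (1.48), Ndufaf4 (1.45), Ndufaf5 (1.85) and Ndufaf6 (2.12), and the others had log2 fold changes of 0.67 (Ndufaf2), 0.35 (Ndufaf3) and 0.90 (Ndufaf7). With library size alone, where the median of all genes was -1.08, 10 subunits and 1 assembly factor rose, against 7.98% of all genes, with medians of 0.73 and 0.43, and Ndufc2, Ndufaf2, Ndufaf3 and Ndufaf7 turned to -0.46, -0.35, -0.68 and -0.12.

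**Figure D4:**
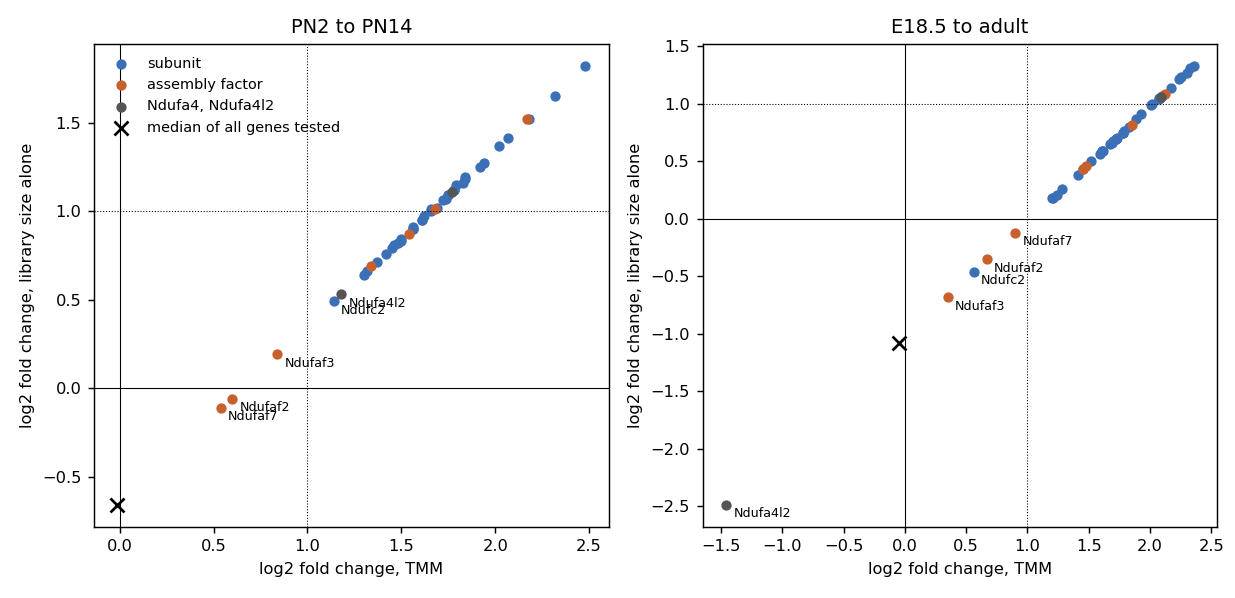
Log2 fold change of each Nduf gene with TMM (horizontal axis) and with library size alone (vertical axis), from PN2 to PN14 at left and from E18.5 to adult at right; the cross is the median of all genes tested and dotted lines mark 2-fold. The points and the cross shift down together with library size alone, as the change of scaling requires.

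Ndufa4 (mm9 chr6:11850373-11857446, minus strand) and Ndufa4l2 (chr10:126951995-126954208, plus strand) parted. Ndufa4, the most abundant of the 45 genes, had 272 rescaled FPKM at E18.5, 336 at PN2, 1229.7 and 1055 at PN14, 1098 at PN28 and 1155 in adult muscle. It rose by 1.77 (SE 0.324) from PN2 to PN14, close to the subunits. Ndufa4l2, a target of hypoxia-inducible factor that lowers complex I activity, had 31.2 at E18.5, 8.45 at PN2, 19.2 and 19 at PN14, 15.8 at PN28 and 11.3 in adult muscle. It rose by 1.18 (SE 0.185, adjusted p = 0.00981, edgeR quasi-likelihood test) from PN2 to PN14, and with library size alone that call was lost (0.53, adjusted p = 0.27). It was the only Nduf gene that fell from E18.5 to adult, where 23.6% of all genes fell, by a log2 fold change of -1.46 (SE 0.207, adjusted p = 0.00292, edgeR quasi-likelihood test), and it fell with library size alone too (-2.49), where 45.6% of all genes fell. The ratio of Ndufa4 to Ndufa4l2 went from 8.73 at E18.5 to 39.7 at PN2 and 102 in the adult.

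The difference of Ndufa4l2 between E18.5 and PN2 was -1.88 (SE 0.208), with an adjusted p of 0.115 in edgeR's quasi-likelihood test. It was called with library size alone, with no filter, by DESeq2 and by edgeR's exact test, so the call depended on the scaling, the filter and the test. The log2 fold change was -1.88 in each of these. Of 8 other targets of hypoxia-inducible factor, 7 were lower at PN2 than at E18.5, with a median of -0.77, and 0 were called. The median over all genes tested was -0.011. Of the 8, 3 had an unadjusted p under 0.05 in edgeR's quasi-likelihood test, and the share of all genes under that limit was not counted. The lowest was Slc2a1, the glucose transporter GLUT1, at -2.34 (15.3 against 3.02 rescaled FPKM), followed by Ankrd37 at -1.78. From E18.5 to adult, where Ndufa4l2 fell, the same 8 targets had a median of 0.09, with 5 higher and 3 lower. In that comparison Bnip3 (2.40) and Vegfa (1.25) rose, where 21.4% of all genes rose. Ndufa4l2 is also known from pericytes. The summed level of 7 pericyte and smooth muscle markers was 833 CPM both at E18.5 and at PN2, with 4 markers higher and 3 lower at PN2. Acta2, the largest part of that sum, went from 405 to 366 CPM, and Rgs5 went from 25.9 to 39.2. The part of pericytes in the result was not tested. The 4 red cell markers also summed to less at PN2, with 549.9 CPM against 3112 at E18.5. Their sum was 1348 and 622 CPM at PN14, where Ndufa4l2 had 19.2 and 19 rescaled FPKM. It was 820.3 CPM at PN28 and 279.6 in the adult, and the part of red cells in the result was not tested. Since E18.5 and PN2 have 1 library each, the E18.5 values have no replicate.

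**Figure D5:**
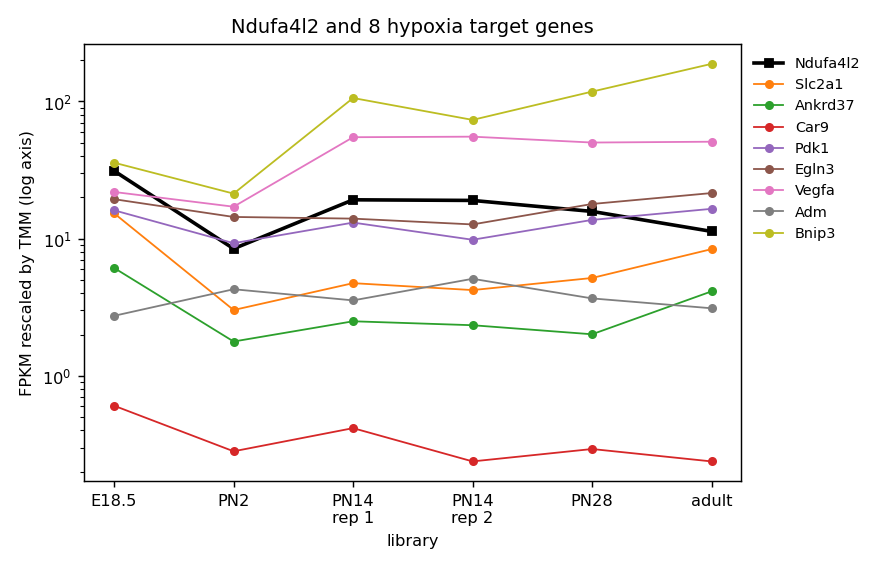
Rescaled FPKM (log axis) of Ndufa4l2 and 8 other hypoxia target genes in the 6 libraries; each point is 1 library. Ndufa4l2, Slc2a1 and Ankrd37 are highest at E18.5 and lower at PN2, and Vegfa and Bnip3 are higher from PN14 on.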

How the data were processed

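Alignment by the authors used TopHat 2.0.5 and the mouse build mm9, and RSEM (version not given in the sources used here) estimated fragment numbers for RefSeq gene models. The authors deposited 1 table with expected counts and FPKM per gene and library, and both were used. Expected counts were rounded and fitted with edgeR 4.0.16 in R 4.3.3: 5 stages as groups, TMM factors, filterByExpr (16882 of 23367 genes kept), quasi-likelihood tests with Benjamini-Hochberg adjustment over all genes kept. Deposited FPKM values were divided by the TMM factors. Standard errors (SE) were worked back from the test, as the size of the log2 fold change over the square root of its F statistic. Alternatives were library size alone, DESeq2 1.42.0 (size factors, Wald test), edgeR's exact test, other filters and each PN14 library left out; the code was checked on simulated counts. Genes were named by a rule: all assembly factors, the core subunits, Ndufa4, Ndufa4l2 and Ndufab1, the 4 largest and smallest changes, and the highest and lowest levels. The genes, the lists, the 14-gene mean as a denominator and the Ndufc1 to Ndufc2 pair were chosen with earlier results of these data known. Ndufb1 was not analysed here, and 1 core subunit is counted but not reported singly. P-values set a difference between stages against an error estimated from the 2 mice at PN14. That error was moderated over all genes kept, with a median of 4.86 prior degrees of freedom against 1 residual. Comparisons without PN14 have no measured spread in either stage. Strandedness was not stated.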

Additional observations from a re-analysis of the deposited data

How the results depend on the processing

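Only the scaling moved the counts of genes called after PN2. With library size alone, the PN2 to PN14 comparison called 23 Nduf genes in place of 42 (20 subunits, 2 assembly factors). E18.5 to adult called 13 in place of 41 (10 subunits, 1 assembly factor), and E18.5 to PN2 called 1 in place of 0. Median log2 fold changes were 1.02 for subunits and 0.69 for assembly factors from PN2 to PN14, and 0.73 and 0.43 from E18.5 to adult. Without a test, 20 subunits and 2 assembly factors differed at least 2-fold from PN2 to PN14, and 10 and 1 from E18.5 to adult. Summed CPM ratios were 2.05 (subunits) and 1.54 (assembly factors) from PN2 to PN14, against 3.24 and 2.42 with TMM, and 1.76 and 1.26 from E18.5 to adult, against 3.58 and 2.57. The sign turned for Ndufaf2 (-0.06) and Ndufaf7 (-0.11) from PN2 to PN14, and for Ndufaf2 (-0.35), Ndufaf3 (-0.68), Ndufaf7 (-0.12) and Ndufc2 (-0.46) from E18.5 to adult; 47 single-gene calls were lost. These shifts follow from the scaling, which moved the median of all genes too.

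From E18.5 to PN2 the count was 1 (Ndufa4l2) with DESeq2's Wald test, edgeR's exact test and no filter, against 0. DESeq2's size factors and Wald test, the exact test and the other low-count filters left 36 and 35 subunits and 4 assembly factors called. Without either PN14 library, which leaves no residual degree of freedom and so no test, the subunit median from PN2 to PN14 was 1.59 to 1.72 and that of assembly factors 1.32 to 1.34. No paired analysis was possible because only PN14 carries replicate numbers. All 45 genes passed the low-count filter, and the single library at 4 stages is the main limit.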
